A study of Homo sapiens with 6 samples.

Results

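The nuclear-encoded subunits of the respiratory chain were followed in SW480, a human colorectal cancer cell line, with and without induction of KIAA1199. A list of 48 subunit genes was taken from the composition of the 5 complexes, with the cytochrome c that links them, and no measured value decided which genes it holds, although the chain was taken up with earlier results of these data known. Probe sets for 46 of them, each named by an Ensembl gene identifier, were among the 26445 probe sets with deposited levels. The remaining 2, COX6A1 (ENSG00000111775_at) and ATP5O (ENSG00000241837_at), were not analysed here. The cells of every group were Clone 13, a single SW480 clone that carries a tetracycline repressor and a KIAA1199 construct under a doxycycline-inducible promoter, and was selected with blasticidin S and G418. In 3 independent experiments, total RNA was taken from cells exposed to doxycycline at 50 ng/ml for 48 h and from uninduced cells, and was hybridized to 6 Affymetrix GeneChip Human Exon 1.0 ST arrays. Doxycycline and KIAA1199 were present together on every induced array, so their effects cannot be told apart here. The files do not pair identifiers with gene symbols beyond the list used here, so KIAA1199 itself, the markers of colorectal epithelium and of other cell types, the other subunits, the assembly factors and the transcription factors of this pathway were not analysed here.

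The respiratory chain lies in the inner mitochondrial membrane. Complex I takes electrons from NADH and complex II from succinate, both pass them through ubiquinone to complex III, and cytochrome c carries them to complex IV, which reduces oxygen. Complexes I, III and IV pump protons, and the ATP synthase uses the returning protons to make ATP. A few subunits of complexes I, III and IV and of the ATP synthase are made in the mitochondrion from its own DNA, while all the subunits described here are made in the cytosol from nuclear genes and imported. Some hold the redox centers or catalytic sites, and many others are small accessory proteins that stabilize the complexes.

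Levels are on a log2 scale, on which a difference of 1 is a doubling, and were compared between groups within a probe set. Their rank among all probe sets is used only to describe how bright a probe set was, since the levels of different probe sets are not on 1 scale of transcript number. A subunit gene was called raised or lowered at the limits with which the study selected genes, a fold change of 1.2 or more together with p under 0.025 before adjustment, here in limma with the experiment as a block. Upon doxycycline exposure, 5 of the 46 subunit genes were called lowered and 0 were called raised. Over all probe sets, 2.94% were called lowered and 2.90% raised. The 5 were COX6C and COX7B of complex IV, NDUFAB1 and NDUFC2 of complex I, and ATP5J of the ATP synthase, and their levels were between 22.2% and 38.2% lower with doxycycline. No subunit gene (0 of 46) and no probe set (0%) had a Benjamini-Hochberg adjusted p under 0.05 in limma, and the smallest among the subunit genes was 0.35. At an unadjusted p under 0.05, limma held 7 of the 46 subunit genes against 12.3% of all probe sets, and the methods' paired t-test, run here on the deposited levels of all 26445 probe sets and not in the study's own software, held 8 against 10.4%. A lower level in RNA from a whole culture cannot tell fewer cells with the transcript from less of it per cell. A p-value here weighs a change against the spread between the experiments, and its precision is limited by the 3 arrays per group. In limma, the variance of each gene is first drawn toward a value shared by all probe sets, which also enters the intervals. For NDUFC2, this gave a standard error of 0.06, although the SD of its 3 differences was 0.033.

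**Figure D1:**
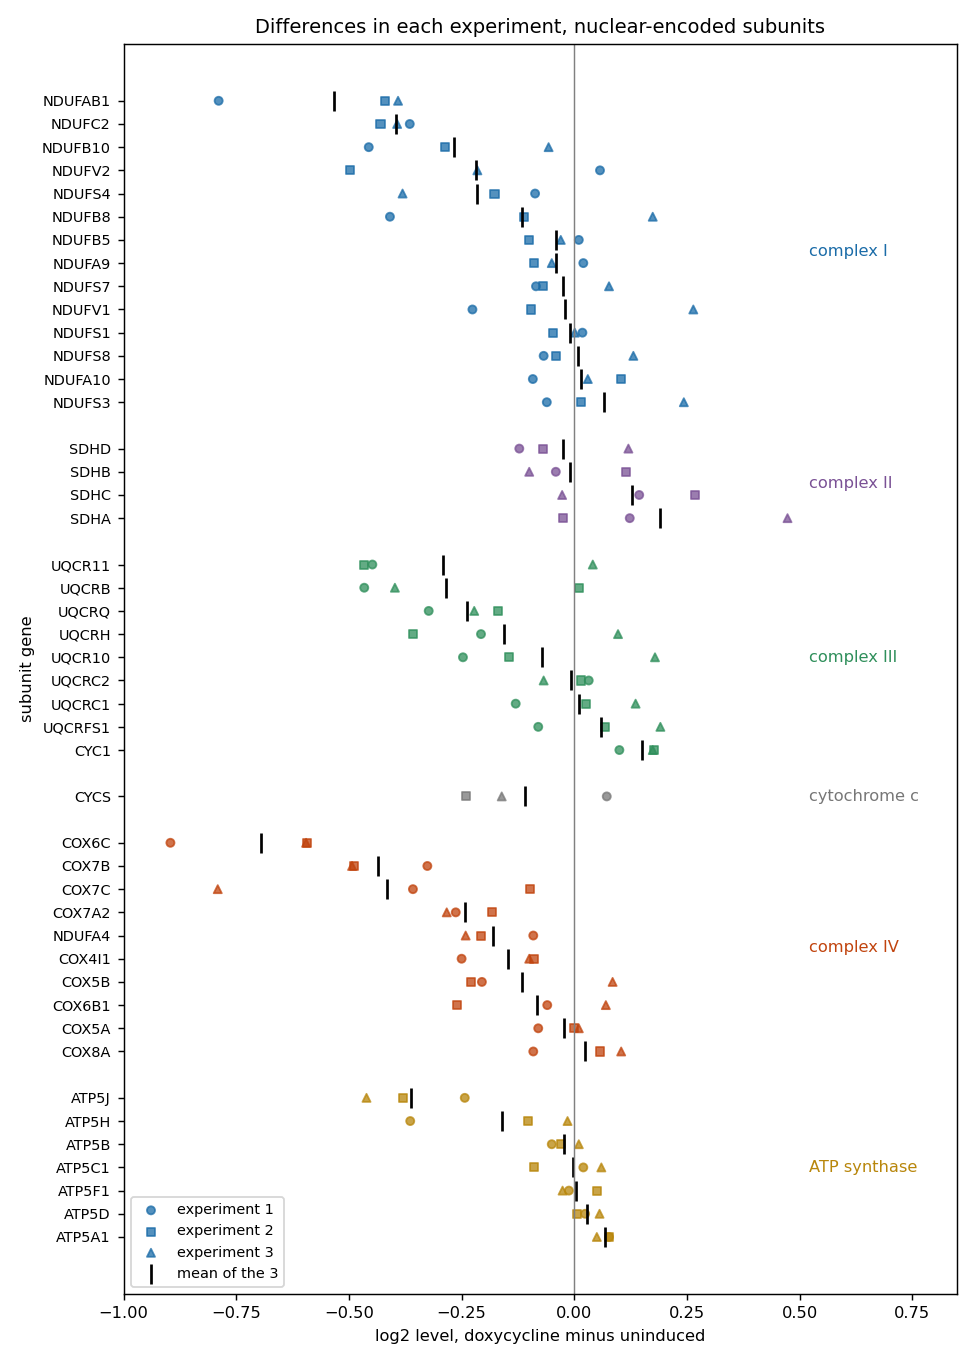
Log2 level with doxycycline minus log2 level without it (x axis) for each subunit gene reported by name (y axis), ordered by complex. Circles, squares and triangles stand for experiments 1, 2 and 3 and the black bar for their mean; 13 genes have all 3 differences below 0 and 3 have all of them above 0.

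Complex I was measured through 15 subunit genes, of which 2 were called lowered (2.94% of all probe sets were) and 4 lay lower with doxycycline in all 3 experiments (17.6% of all probe sets did, and 25.3% of the brightest 25%). NDUFAB1 (ENSG00000004779_at) encodes the mitochondrial acyl carrier protein, which is an accessory subunit of the complex and also carries growing acyl chains in mitochondrial fatty acid synthesis. Its level was 8.84, 8.80 and 8.39 in the uninduced cells of experiments 1, 2 and 3, and 8.05, 8.38 and 7.995 with doxycycline. All uninduced arrays lay above all doxycycline arrays, although the lowest uninduced level and the highest doxycycline level nearly met. The log2 fold change was -0.53 (standard error 0.11, unadjusted p = 0.0079 and adjusted p = 0.35 from limma), a level 30.9% lower. NDUFC2 (ENSG00000151366_at) is a small subunit of the membrane arm. Its uninduced levels of 9.12, 9.23 and 8.82 were all above the 8.75, 8.80 and 8.43 with doxycycline. The differences of NDUFC2 were close to each other in the 3 experiments, at -0.37, -0.43 and -0.39, and the log2 fold change was -0.40 (standard error 0.06, unadjusted p = 0.003 and adjusted p = 0.35 from limma).

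The conserved core of complex I holds the flavin and the iron-sulfur clusters through which electrons leave NADH for ubiquinone. The nuclear-encoded subunits measured there included NDUFS1, NDUFS7, NDUFS8, NDUFV1 and NDUFV2, and 0 of the core subunits were called, where 2.94% of all probe sets were called lowered and 2.90% raised. At such shares, a count of 0 in so few genes is near the background, here and in complexes II and III. NDUFS1 (ENSG00000023228_at), the largest of these proteins, had uninduced levels of 9.73, 9.86 and 9.82 and doxycycline levels of 9.75, 9.81 and 9.82. The arrays of both groups overlapped, and the 95% interval of its log2 fold change, -0.18 to 0.16, lay within the 1.2-fold limit of 0.26 in either direction. NDUFV2 had the lowest of the core, at -0.22, but its mean level was at percentile 25.1 of all probe sets and its differences ranged from -0.50 to 0.06.

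Of the accessory subunits of complex I that were not called, NDUFB10 and NDUFS4 had lower levels with doxycycline in each experiment. NDUFB10 differed by -0.46, -0.29 and -0.06 (log2 fold change -0.27, unadjusted p = 0.058 from limma), and its groups did not overlap. NDUFS4, a late-assembling subunit mutated in Leigh syndrome, differed by -0.09, -0.18 and -0.38 (log2 fold change -0.21, unadjusted p = 0.066 from limma), and its groups overlapped. NDUFB8 turned from -0.41 in experiment 1 to 0.17 in experiment 3. NDUFA9, NDUFA10 and NDUFB5 had log2 fold changes between -0.04 and 0.01, with intervals inside the 1.2-fold limit.

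All 4 subunits of complex II, which is also the succinate dehydrogenase of the citric acid cycle and has no mitochondrially encoded part, were measured, and 0 were called (2.94% of all probe sets lowered, 2.90% raised). SDHA (ENSG00000073578_at) is its flavoprotein. Its levels were 8.51, 8.59 and 8.36 without and 8.63, 8.57 and 8.83 with doxycycline, which overlapped. The log2 fold change of SDHA, 0.19 with an interval from -0.14 to 0.52, was the highest among all 46 subunit genes, and it came mainly from a difference of 0.47 in experiment 3. It was 0.05 without that experiment and 0.30 without experiment 2. The membrane anchor SDHC had a log2 fold change of 0.13, and the iron-sulfur protein SDHB and the second anchor SDHD had -0.01 and -0.02.

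Complex III passes electrons from ubiquinol to cytochrome c. Of its 9 measured subunit genes 0 were called, against the same 2.94% lowered and 2.90% raised over all probe sets. UQCR11 (ENSG00000127540_at), its smallest subunit, had the largest log2 fold change of the complex, -0.29 (unadjusted p = 0.092 from limma). Its levels were 7.61, 7.72 and 7.21 in uninduced cells and 7.16, 7.25 and 7.25 with doxycycline. The difference was therefore present in experiments 1 and 2 and not in experiment 3, where the uninduced level was already as low as the doxycycline levels, and without experiment 3 the log2 fold change was -0.46. UQCRQ, another small subunit, was lower in all 3 experiments, by 0.17 to 0.32, with an unadjusted p of 0.025 from limma that is under the p limit before rounding, but at a log2 fold change of -0.24 it stayed below the fold change minimum. UQCRB differed by -0.47 and -0.40 in experiments 1 and 3 and by 0.01 in experiment 2. CYC1, the heme-bearing cytochrome c1, lay higher with doxycycline in all 3 experiments, by 0.10, 0.18 and 0.17, and its groups did not overlap (log2 fold change 0.15, unadjusted p = 0.074 from limma). The Rieske protein UQCRFS1 and the core proteins UQCRC1 and UQCRC2 had log2 fold changes of 0.06, 0.01 and -0.01. Cytochrome c itself (CYCS, ENSG00000172115_at) had levels of 9.18, 9.37 and 9.20 without and 9.25, 9.13 and 9.04 with doxycycline, a log2 fold change of -0.11 with overlapping groups and an interval from -0.36 to 0.14. It was -0.20 without experiment 1 and -0.04 without experiment 2.

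Complex IV, cytochrome c oxidase, has a catalytic core that is encoded in the mitochondrion, so each of its nuclear-encoded subunits is an accessory one. Of the 10 measured, which include NDUFA4, once assigned to complex I, 9 had a negative log2 fold change (13099 of all 26445 probe sets did). With doxycycline, 6 were lower in all 3 experiments (17.6% of all probe sets were, and 25.3% of the brightest 25%). Of the 10, 2 were called lowered (2.94% of all probe sets, and 4.92% of the brightest 25%), and 8 were among this brightest 25%. The median log2 fold change of these 10 genes was -0.16, against -0.04 in complex I, 0.06 in complex II, -0.07 in complex III and 0.00 in the ATP synthase. These medians are given as a description, and the difference between complexes was not tested. COX6C (ENSG00000164919_at), a small subunit that spans the membrane, had the largest change of all 46 genes. Its levels were 9.10, 8.98 and 8.48 without doxycycline and 8.21, 8.39 and 7.89 with it. The arrays of the groups did not overlap, and within both groups the array of experiment 3 was the lowest. COX6C changed by -0.90, -0.59 and -0.60 in the 3 experiments (log2 fold change -0.69, standard error 0.09, unadjusted p = 0.0017 and adjusted p = 0.35 from limma), a level 38.2% lower.

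COX7B (ENSG00000131174_at) is another membrane-spanning subunit, encoded on the X chromosome. It had uninduced levels of 10.16, 10.21 and 9.97 and doxycycline levels of 9.83, 9.72 and 9.47. The groups did not overlap, and the differences were -0.33, -0.49 and -0.49 (log2 fold change -0.44, standard error 0.07, unadjusted p = 0.0036 and adjusted p = 0.35 from limma). COX7C, also a small membrane subunit, had a log2 fold change of -0.42, near that of COX7B, but its differences of -0.36, -0.10 and -0.79 were far more spread, and it was not called (unadjusted p = 0.055 from limma). COX7A2 was under the p limit (0.019) but not past the fold change minimum, with differences from -0.18 to -0.28. NDUFA4 and COX4I1, the latter the largest of the nuclear-encoded subunits, were lower in all 3 experiments with log2 fold changes of -0.18 and -0.15 and were not called. COX5A and COX8A had log2 fold changes of -0.02 and 0.02 with intervals inside the 1.2-fold limit, and COX5B and COX6B1 had -0.12 and -0.08 with intervals that reached past it.

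In the ATP synthase, the genes of the catalytic head had small fold changes. ATP5B (ENSG00000110955_at), the beta subunit that forms ATP, had levels of 11.31, 11.31 and 11.30 in uninduced cells and 11.26, 11.28 and 11.31 with doxycycline. Its log2 fold change was -0.02, with an interval from -0.19 to 0.15. ATP5A1, the alpha subunit, was higher with doxycycline in all 3 experiments, by 0.08, 0.08 and 0.05, and its groups did not overlap, but the whole interval of -0.10 to 0.24 lay inside the 1.2-fold limit. ATP5C1 and ATP5D, of the central stalk, had log2 fold changes of 0.00 and 0.03. The peripheral stalk, which holds the head in place, was measured through 3 genes whose fold changes differed. ATP5F1, its subunit b, had a log2 fold change of 0.00 with an interval from -0.17 to 0.18. ATP5J (ENSG00000154723_at), coupling factor 6 of the same stalk, was the only one of the 7 measured genes of this complex to be called (2.94% of all probe sets were called lowered). Its levels were 7.69, 7.88 and 7.59 without and 7.44, 7.496 and 7.13 with doxycycline, with no overlap. The differences were -0.24, -0.38 and -0.46 (log2 fold change -0.36, standard error 0.07, unadjusted p = 0.0084 and adjusted p = 0.35 from limma). ATP5H, another part of the peripheral stalk, had a log2 fold change of -0.16 with differences from -0.36 to -0.02 and was not called.

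**Figure D2:**
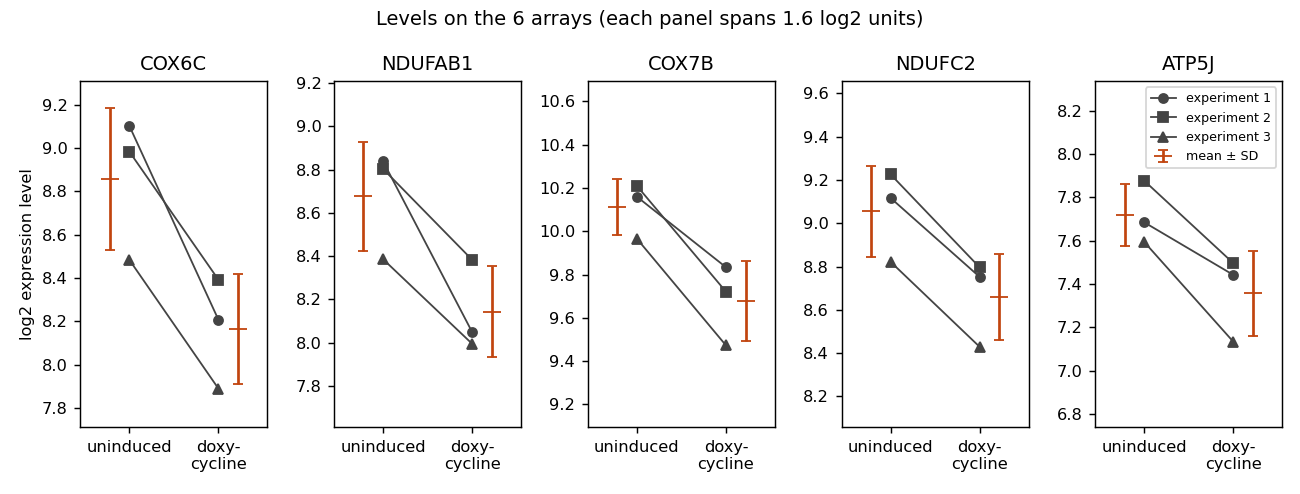
Log2 expression level (y axis) of the 5 subunit genes called lowered, on the uninduced and the doxycycline array of each experiment, joined by a line, with the mean ± SD of the 3 arrays of each group beside them. Every line falls, and in each gene the array of experiment 3 is the lowest of its group.

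For each of these 5 genes, an exact permutation test of 3 arrays against 3 gave p = 0.1 and an exact sign-flip permutation test over the 3 differences gave p = 0.25, both two-sided and the smallest that these designs allow. By the methods' paired t-test, 3 of the 46 subunit genes (COX6C, COX7B and NDUFC2) passed the same limits downward, against 1.12% of all probe sets. Without the experiment as a block, limma called 3 (COX6C, COX7B and NDUFAB1), against 2.17%. Raising the fold change minimum to 1.5 left COX6C alone, against 0.492% of probe sets, and leaving the minimum out gave 7, with UQCRQ and COX7A2 added, against 3.38%. When experiment 1, 2 or 3 was left out, 5, 4 and 5 subunit genes were called lowered, against 2.67%, 2.0% and 1.94% of all probe sets. COX6C, NDUFAB1 and NDUFC2 were among them each time. COX7B was missing without experiment 2 and ATP5J without experiment 2 or 3, and UQCRB was called without experiment 2 and UQCR11 without experiment 3.

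**Figure D3:**
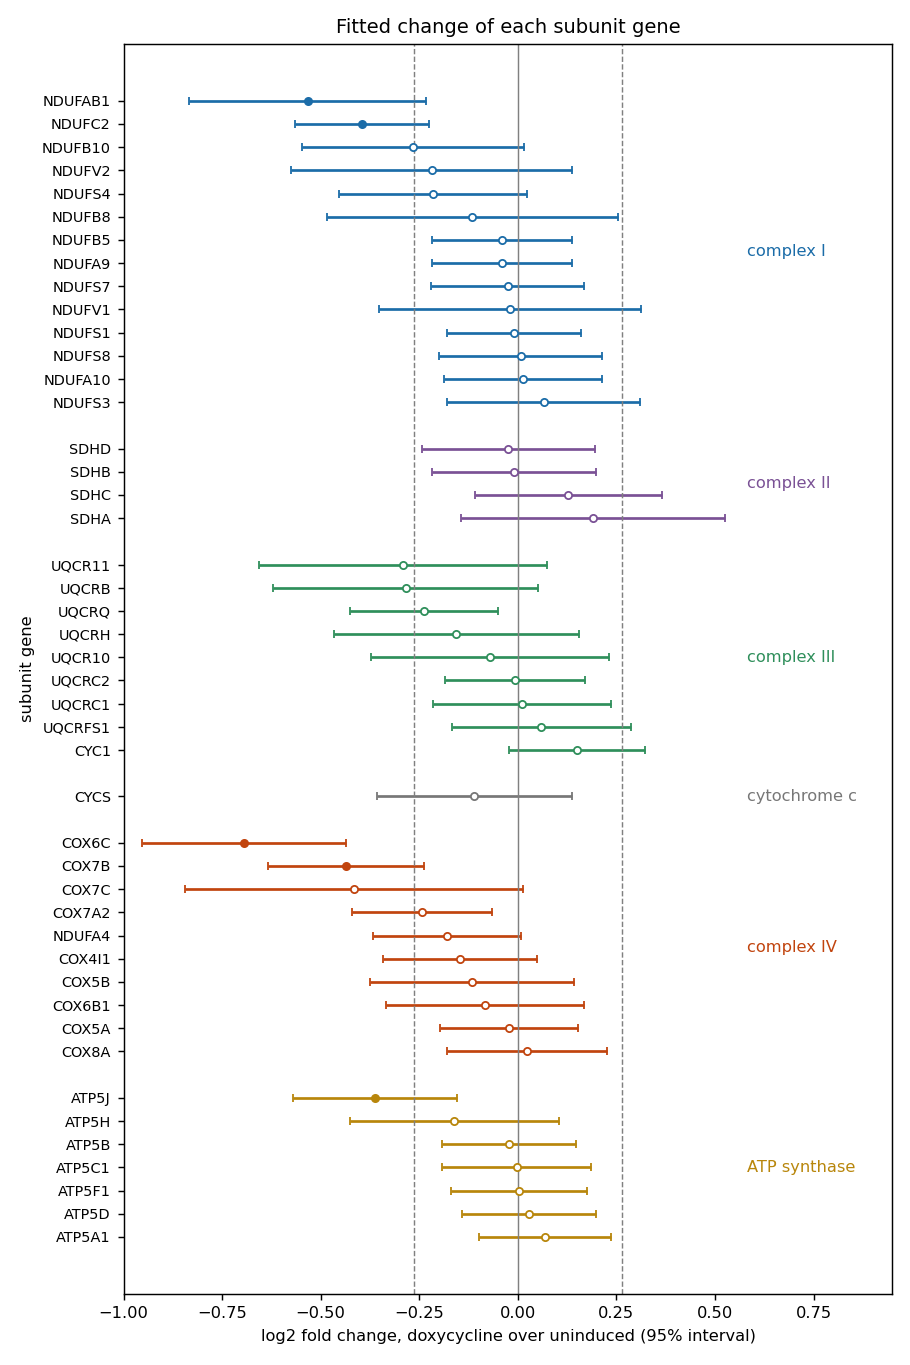
Log2 fold change of each subunit gene reported by name with its 95% interval from limma (x axis), by complex; filled circles mark the 5 genes called lowered, and dashed lines the 1.2-fold limits. The intervals of 17 genes lie wholly between the dashed lines.

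Small changes in the deposited levels could be bounded for many of the others. For 17 of the 46 subunit genes the 95% interval lay entirely within a 1.2-fold change in either direction, compared with 23.8% of all probe sets. Bright probe sets vary less: the median SD of the 3 differences was 0.104 in the brightest 25%, against 0.144 over all probe sets. The share within the brightest 25% is not given here, so the 17 were not set against a background of like brightness. The 17 included NDUFS1, NDUFS7 and NDUFS8 of the complex I core, SDHB and SDHD, UQCRC1 and UQCRC2, and ATP5A1, ATP5B, ATP5C1, ATP5D and ATP5F1. These bounds hold for the deposited level of each probe set and not for the transcript, since other summaries of the same arrays were not examined here. The mean level of SDHD was only at percentile 55.9 of all probe sets. When the genes were divided after their values were seen, into 16 that are the core subunits of complex I, the subunits of complex II, the electron carriers UQCRFS1, CYC1 and CYCS, or ATP5A1 and ATP5B of the catalytic head, and 30 others, none (0) of the 16 and 13 of the 30 were lower with doxycycline in all 3 experiments, beside 17.6% of all probe sets. Among the brightest 25% of probe sets, which hold 40 of the 46 subunit genes, that share was 25.3%. The median log2 fold change was 0.00 in the 16 genes and -0.15 in the 30 others. A division chosen in this way was given no test.

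Across the 46 subunit genes, 33 had a negative and 13 a positive log2 fold change, with a median of -0.04, against 0.00 over all probe sets. With doxycycline, 13 were lower in all 3 experiments (17.6% of all probe sets were) and 3 were higher in all 3 (18.9% were). The groups did not overlap in 7 with doxycycline lower, against 7.93% of all probe sets, and in 2 with doxycycline higher, against 8.64%. Of the 6611 brightest probe sets, the groups did not overlap in 883 with doxycycline lower and in 1007 with doxycycline higher. Both are larger shares than those over all probe sets, and the number of subunit genes within the brightest is not given here. In 40 of the 46, the mean signal lay among the 25% highest of all probe sets. Among these 6611 probe sets, 4.92% were called lowered and 4.93% raised, 25.3% were lower in all 3 experiments and 28.0% were higher, while of the 40 subunit genes there 5 were called lowered, 0 raised, 12 were lower in all 3 experiments and 3 were higher. The 12 of 40 were thus near the share of that background, and at the shares called raised few or no genes in a list of this size would be called.

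**Figure D4:**
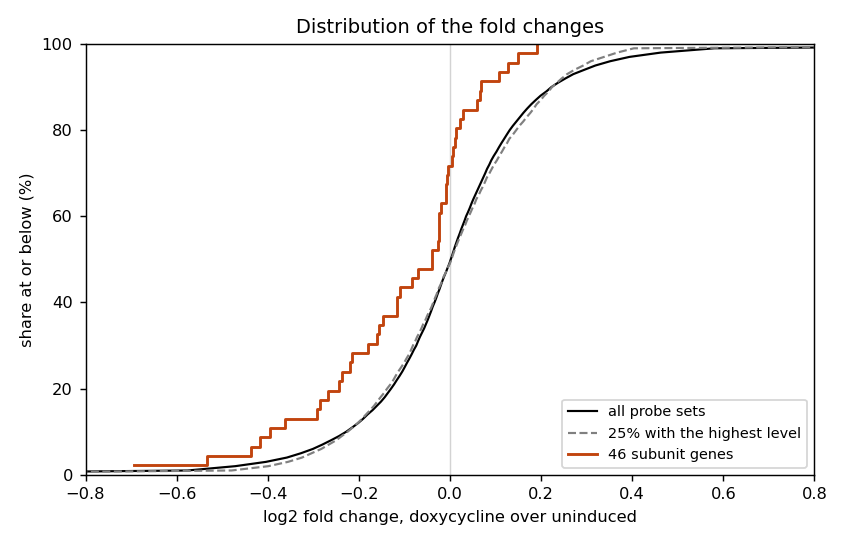
Share of genes at or below a given log2 fold change (y axis, percent) against the log2 fold change (x axis), for the 46 subunit genes, all 26445 probe sets and the 6611 with the highest mean level. The subunit genes run from -0.69 to 0.19, and their curve lies to the left of both others over most of this range.

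The experiments did not carry the differences equally. In experiment 1, 34 of the 46 subunit genes were lower with doxycycline, compared with 50.6% of all probe sets, and the median difference was -0.09. In experiment 2 the numbers were 31 genes, 48.7% and -0.09. In experiment 3 only 22 genes were lower, compared with 48.5%, and the median difference was 0.01. From experiment 1 to experiment 3 the sign turned from lower to higher in 18 genes, NDUFV1, UQCR10 and UQCRH among them, and from higher to lower in 6. Over the 46 genes, the median level was 8.78, 8.70 and 8.44 on the uninduced arrays of experiments 1, 2 and 3, and 8.52, 8.54 and 8.41 on the doxycycline arrays, while the median of all probe sets was 5.66 on each array. The uninduced array of experiment 3 thus lay nearer to the doxycycline arrays than the other uninduced arrays did. The part of this array in the results was not tested beyond leaving its experiment out, after which the median log2 fold change was -0.09. The called genes were lower in experiment 3 as well, by 0.39 to 0.60. Experiment 3 was part of the fit that called them, so this is largely a result of the call.

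The promoters of these genes are known to share sites for a few transcription factors, among them NRF1, the ETS factor GABPA and YY1, which are general activators of respiratory chain genes. RefSeq promoter sequences (GRCh38.p14, 250 bases before to 50 bases after a start) were matched for 37 of the 46 genes, and the letters GCGCANGCG for NRF1, CCGGAAG for GABPA and AAGATGGC for YY1 were searched on both strands. The NRF1 letters had been shortened by 1 after a first search had been seen, and the longer form was in 8 genes, with neither NDUFAB1 nor ATP5J among them. As searched, the NRF1 letters were in 11 of the 37 (29.7%) against 9.02% of 27305 genes, those of GABPA in 14 (37.8%) against 12.2%, and those of YY1 in 8 (21.6%) against 3.52%. In the 250 bases before the start alone, the YY1 letters were in 1 of the 37 (2.7%) against 1.64% of genes, so nearly all of these matches lay at or after the start. At least 1 of the 3 was in 25 genes, or 67.6%, against 21.5%. The AAG that ends the GABPA letters can also begin those of YY1, but no match of these genes lay in such an overlap. Of the genes called lowered, the promoters of NDUFAB1, COX7B and ATP5J were matched. ATP5J, which has 2 starts in the table, held all 3 motifs before 1 of them, NRF1 in the shortened form only, and the gene of GABPA itself lies beside it on the opposite strand. NDUFAB1 held the NRF1 letters, again in the shortened form only, and COX7B none of the 3, so no motif of this search was in all of the matched genes that were called. The 120 bases before the start of these called genes, other than ATP5J, and of 2 genes that were not called are printed below for comparison, with the motif letters in capitals. NDUFAB1 is at chr16:23596317-23596436 on the minus strand, COX7B at chrX:77899348-77899467 on the plus strand, UQCR11 at chr19:1605463-1605582 on the minus strand and ATP5C1 at chr10:7788057-7788176 on the plus strand.
NDUFAB1: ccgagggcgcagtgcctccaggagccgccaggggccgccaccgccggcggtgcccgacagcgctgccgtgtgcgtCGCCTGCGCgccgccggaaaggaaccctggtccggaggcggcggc
COX7B: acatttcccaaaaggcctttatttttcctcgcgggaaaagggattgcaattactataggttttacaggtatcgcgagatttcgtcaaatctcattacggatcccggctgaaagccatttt
UQCR11: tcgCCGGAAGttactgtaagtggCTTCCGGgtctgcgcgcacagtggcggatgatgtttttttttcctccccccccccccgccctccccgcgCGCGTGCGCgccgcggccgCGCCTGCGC
ATP5C1: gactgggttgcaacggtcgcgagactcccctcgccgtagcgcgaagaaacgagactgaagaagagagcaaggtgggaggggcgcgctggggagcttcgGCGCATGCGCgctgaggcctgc

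UQCR11, with a log2 fold change of -0.29, carries GABPA letters in both orientations and a pair of NRF1 matches next to its start, and ATP5C1, with a log2 fold change of 0.00, carries a palindromic NRF1 match. A match of letters is a description of the sequence, and binding was not measured here.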

How the data were processed

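The levels that the authors deposited are log2 values of 26445 probe sets from 6 Affymetrix GeneChip Human Exon 1.0 ST arrays, 3 per group. The submitters' processing notes name RMA, and once sorted, no array departed from another by more than 0.024, which is 1 shared distribution; no further normalization was applied. The annotation version is not given in the sources used here. The member counts include 1 gene whose own values are not reported here. All columns of values were used, without a detection filter. Arrays were grouped and numbered from their titles; the labels repeat the doxycycline treatment on the uninduced arrays, and the level of KIAA1199 could not be used to check the grouping. Gene names came from the list of members, and 46 symbols were matched to RefSeq. The members, gene lists and tests were chosen with earlier results of these data known, the members by their place in the complexes.

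All probe sets were tested together, two-sided, with limma 3.58.1 in R 4.3.3 (lmFit, eBayes) with the experiment as a block, following the paired test of the study's methods, and adjusted by the Benjamini-Hochberg method; only the members are printed. Simulated data served only to check that the fits returned the mean of a planted change, which does not test the calls. Members past the limits, and in each complex the one with the largest fold change, are printed array by array. Alternatives left out the block or each experiment, used the methods' paired t-test, dropped the dimmest 25% of probe sets, changed the variance prior or the fold change minimum, or removed the level trend by lowess (span 0.3). The comparison with the 25% of probe sets of highest level, the division into core and other subunits and the motif letters were chosen after the data were seen.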

Additional observations from a re-analysis of the deposited data

How the results depend on the processing

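The count of subunit genes called lowered, 5, became 3 with no replicate block, 3 in the methods' t-test and 1 with a fold change minimum of 1.5, and was 4 to 5 with an experiment left out. It stayed at 5 without the dimmest probe sets, with either other prior and with the level trend removed, and was 7 with no fold change minimum. No share of all probe sets is given for the fits without the dimmest probe sets, with another prior or with the level trend removed. Their count of 5 was therefore not set against a background. Called raised were 0 in every setting run, and past an adjusted p of 0.05 likewise 0, with the smallest adjusted p between 0.16 and 0.62. The median log2 fold change was -0.09 to -0.03 with an experiment left out. Genes lower in every experiment kept numbered 16 to 24 with 1 left out and 14 with the level trend removed, against 13; genes higher in every one numbered 5 to 9 and 2, against 3. Fewer experiments have to agree there, so more genes pass by construction. COX6C was past the limits in all 9 alternative fits, NDUFAB1, NDUFC2 and COX7B in 8 and ATP5J in 5; all kept their direction, and the cause of the lost calls was not tested. Deviations of arrays with the same replicate number correlated with an r of 0.039, 0.049 and 0.13 over the probe sets. For arrays with different numbers, r ran from -0.092 to 0.044. The values alone thus show the pairing weakly at most, and the block was kept from the study's methods. In the 250 bases before the start alone, 10 members held the NRF1 letters, 13 those of GABPA and 1 those of YY1 (2.7%, against 1.64% of genes); in the longer form first searched, the NRF1 motif was in 8, and in neither NDUFAB1 nor ATP5J. The settings planned for KIAA1199 and for 10 lists of other genes were not run, because their identifiers could not be named.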
